A study of Mus musculus with 9 samples.

Results

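Right ventricles of mouse pups that had received a surgical fistula together with cyclosporin A were compared, transcript by transcript, with right ventricles of sham-operated pups. The comparison covers 6 of the 9 RNA-seq libraries of the study, 3 labelled CsA and 3 labelled Sham, chosen by their labelled treatment. The other 3 libraries, labelled VO, came from pups with the fistula and no drug, and they were used to estimate the spread and to set values side by side. All 9 libraries are from wild-type C57BL/6 mice labelled as postnatal day 7, and the operation was done under isoflurane at that age. The labels give neither the dose of cyclosporin A nor the age at harvest, and they name no injection for the Sham group. The CsA group differs from Sham by the operation and by the drug, so what each contributes cannot be told apart in this comparison. Nothing in the labels says that each library is a separate animal, and the spread behind every p-value here is that among these libraries, which may be technical.

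A fistula joins an artery and a vein, returns extra blood to the heart and stretches the ventricle, which is called volume overload. Calcineurin is a phosphatase that calcium and calmodulin switch on. It removes phosphate from NFAT transcription factors, which then enter the nucleus and switch on target genes, among them its own inhibitor Rcan1. Cyclosporin A binds cyclophilins, and the complex blocks calcineurin. In heart muscle this pathway is known for its part in growth under load, and ventricular cardiomyocytes leave the cell cycle soon after birth.

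The deposited values are FPKM, which divide a gene's fragments by its length and by the size of the library, a scale on which genes of different length can be compared. The Sham libraries held 13270058 to 14280786 fragments assigned to genes and the CsA libraries 12046288 to 12941571. Testing was limited to the 13477 of 54532 genes whose average across the 9 libraries reached 0.5 FPKM. The labelled tissue was checked by its markers. The ventricular light chain Myl2 lay at 1132, 1298 and 661 FPKM in Sham and at 937, 1122 and 1105 FPKM in CsA. Myl7, which encodes the atrial light chain, was uneven. In Sham it stood at 235, 1.10 and 269.7 FPKM (replicates in the order of their numbers, as throughout), and in CsA at 13.2, 0.959 and 68.3 FPKM. Sham 2 was also the only library with Y-linked transcripts, with Ddx3y at 18.6 FPKM against 0 in the other 8 libraries, and the groups therefore differ in sex. VO 3, which enters the estimate of the spread, stood apart with 11.0% of its fragments on mitochondrially encoded genes. For several genes and lists below, the value without the 3 libraries high in Myl7 (Sham 1, Sham 3 and CsA 3) is given too. It rests on Sham 2 as the only Sham library, which is assumed to vary like the other groups.

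No gene passed the test between CsA and Sham. In limma's fit to log2(FPKM + 1), 0 of 13477 genes (0.0%) reached an adjusted p of 0.05, and voom on the recovered fragments called 0 as well. An unadjusted p under 0.05 was reached by 200 genes (1.48%), of which 80 (0.594%) were higher and 120 (0.89%) lower in CsA, and voom gave 121. With no difference in any gene 5% would be expected. The share found in the main fit was below that, and the reason was not tested. The smallest adjusted p was 0.208, for the locus Mir6931, and every other gene had an adjusted p of 1. Of the genes tested, 50.3% had a fitted difference above 0 and 49.7% below 0, with a median difference of 0.0013 on the log2 scale. The fitted differences were small: 90% of genes lay between -0.34 and 0.31 on the log2 scale, and 44 genes (0.326%) had a fitted fold of at least 2, of which 15 were higher and 29 lower.

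The intervals show how closely single differences were estimated, with no adjustment for the number of genes. They do not give the size of difference that the adjusted test could miss. Snrpg, with a difference of 1.28 and an interval from 0.28 to 2.28, did not pass. The 95% interval of the difference extended by a median of 0.43 on the log2 scale to each side. For 12097 genes (89.8%) the whole interval lay between -1 and 1 on the log2(FPKM + 1) scale. For genes of low level this does not bound the fold in FPKM itself, which can exceed 2 inside such an interval. The count at an unadjusted p under 0.05 moved with single libraries: it was 651 without CsA 2, 469 without VO 3, 437 without Sham 2, 80 without CsA 1, 107 without Sham 3, 111 without Sham 1 and 131 without CsA 3. With the Sham and CsA libraries fitted alone it was 562. With library weights in the fit of all 9 it was 3475 of 13477, which is above the 5% expected with no difference. Neither fit had a gene past the adjusted threshold. The share below 5% in the main fit therefore did not hold in every setting.

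CsA and Sham libraries were about as close to each other as libraries of 1 group were. The distance between 2 libraries was taken as the median absolute difference in log2(FPKM + 1) over the genes tested. It was 0.129 between CsA 2 and Sham 1 and 0.133 between CsA 3 and Sham 2, both smaller than the closest pair within a group, Sham 1 and Sham 3 at 0.139. Over all 9 pairs of a CsA and a Sham library the distances ran from 0.129 to 0.247 with a median of 0.176. Within Sham they ran from 0.139 to 0.201, and within CsA from 0.159 to 0.225. The CsA libraries lay 0.169 to 0.432 from the VO libraries, where the pairs with VO 3 were among the widest. In each of 8 other settings of scaling, pseudocount, filter and GC correction, 2 pairs of a CsA and a Sham library were closer than the closest pair within a group.

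**Figure D1:**
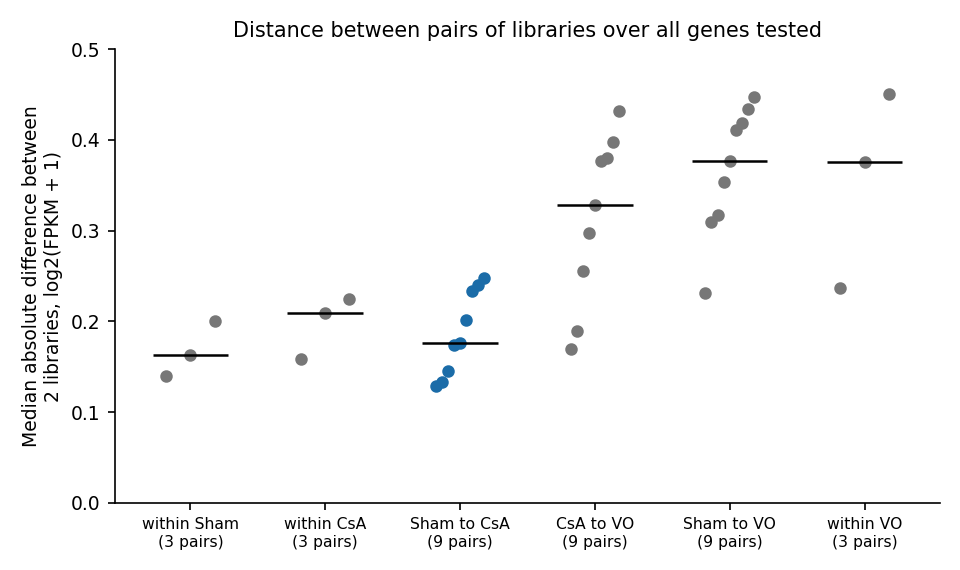
Distance between each pair of libraries, as the median absolute difference in log2(FPKM + 1) over the genes tested (vertical axis), grouped by the pair's labels (horizontal axis). Each point is 1 pair and each bar the median of its column. The 9 pairs of a Sham and a CsA library, from 0.129 to 0.247, cover the range of the pairs within Sham and within CsA.

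The 10 genes named by rule are those with the smallest p in each direction among protein-coding genes whose CsA and Sham libraries did not overlap. None of them passed the test (limma adjusted p of 1 for each). Separation of this kind, with no overlap of CsA and Sham, was met by 1313 genes tested (9.74%), 647 of them higher (4.8%) and 666 lower (4.94%) in CsA.

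Among the 5 higher genes, 3 encode zinc finger proteins of the large family of DNA-binding repressors. Zfp758 (ENSMUSG00000044501, chromosome 17, 22361453 to 22377281 in GRCm38) was at 3.69, 3.17 and 2.46 FPKM in Sham and at 5.05, 5.76 and 4.46 FPKM in CsA. Its mean was 5.09 ± 0.654 against 3.11 ± 0.614 FPKM (SD, n = 3), a log2 difference of 0.57 ± 0.16 (SE, limma unadjusted p = 0.00599). Each CsA library was above each Sham library, and the VO libraries, at 7.49, 5.63 and 6.09 FPKM, were also above Sham. Zfp979 stood at 1.95, 2.27 and 1.56 FPKM in Sham and at 3.67, 3.09 and 3.45 FPKM in CsA. Zfp472 stood at 1.10, 1.15 and 2.21 FPKM in Sham and at 2.33, 2.38 and 2.66 FPKM in CsA, where Sham 3 came close to the CsA range. Genes of this family resemble each other, and the sources used here do not say how fragments matching several genes were counted, so their values are uncertain.

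Snrpg encodes a core protein of the spliceosome, the machine that removes introns. Its level was 1.88, 3.66 and 1.23 FPKM in Sham and 6.46, 6.13 and 7.08 FPKM in CsA, a fitted fold of 2.43 (95% interval 1.22 to 4.85; limma unadjusted p = 0.0171). VO did not fall in with either group, at 1.24, 3.41 and 8.202 FPKM. Snrpg has pseudogene copies, so its counts are uncertain too. Lpar4, a receptor for lysophosphatidic acid, was at 3.53, 4.41 and 1.89 FPKM in Sham and at 6.13, 4.71 and 5.81 FPKM in CsA, where CsA 2 and Sham 2 nearly met. Without the 3 libraries high in Myl7 the log2 difference of Snrpg was 0.64 in place of 1.28, and that of Lpar4 0.24 in place of 0.66.

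The 5 lower genes have different roles. Six5 (ENSMUSG00000040841, chromosome 7, 19094594 to 19098549), a homeobox transcription factor, was at 4.56, 4.02 and 4.23 FPKM in Sham and at 2.31, 2.82 and 3.12 FPKM in CsA. Its mean was 2.75 ± 0.406 against 4.27 ± 0.273 FPKM (SD, n = 3), a log2 difference of -0.50 ± 0.15 (SE, limma unadjusted p = 0.00969). B3gat3, an enzyme that builds the linker of proteoglycan sugar chains, was at 13.8, 11.7 and 15.1 FPKM in Sham and at 8.06, 9.29 and 10.04 FPKM in CsA. In both genes the VO range overlapped that of CsA, at 2.02 to 3.14 FPKM for Six5 and at 6.27 to 8.91 FPKM for B3gat3. Actg2, a smooth muscle actin, stood at 2.11, 2.63 and 2.78 FPKM in Sham and at 1.18, 1.40 and 1.91 FPKM in CsA. Obsl1, a cytoskeletal linker related to obscurin, stood at 10.8, 10.3 and 13.0 FPKM in Sham and at 7.40, 7.98 and 8.87 FPKM in CsA. For Gba2, a glucosylceramidase, the values were 5.42, 5.28 and 5.67 FPKM in Sham and 3.50, 4.29 and 3.82 FPKM in CsA. In limma, CsA minus VO had an unadjusted p above 0.05 for each of these 10 genes.

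**Figure D2:**
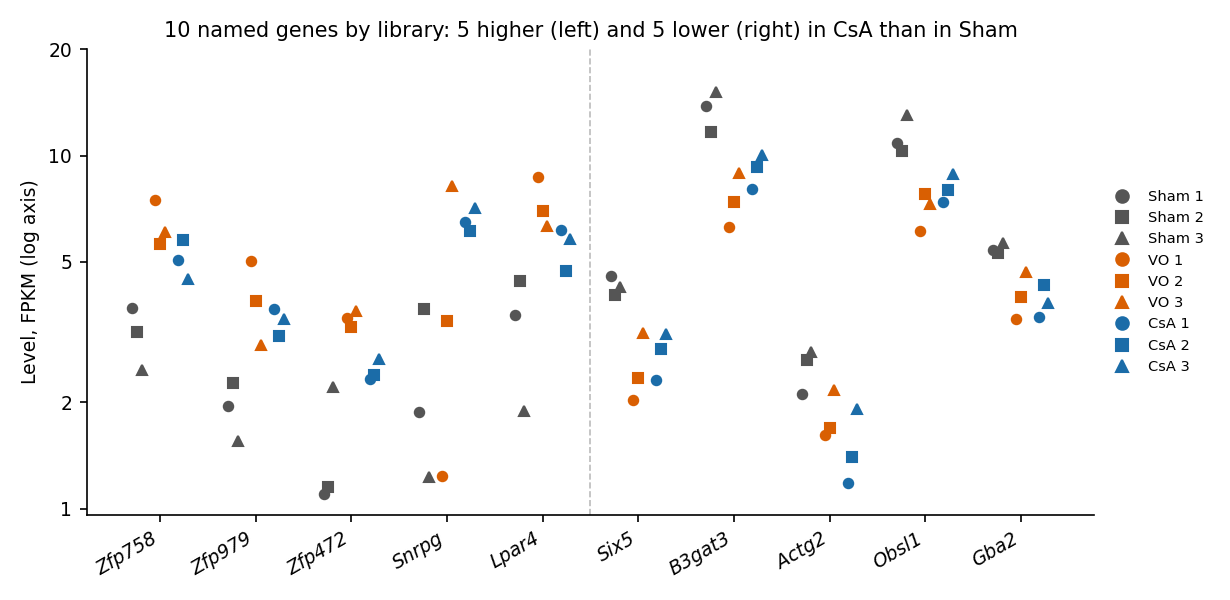
Level of the 10 genes named by rule in each library, in FPKM on a log axis. Symbols mark the replicate number and colours the group. For each gene the 3 CsA libraries sit on 1 side of the 3 Sham libraries, as the rule required, by narrow gaps for Lpar4 (4.41 against 4.71 FPKM) and Zfp472 (2.21 against 2.33 FPKM).

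The higher and lower genes differed in base composition. The median GC content of the longest transcript was 35.4% for the 5 higher and 61.1% for the 5 lower genes, against 49.4% over the genes tested. Stretches of 60 coding bases from the middle of the coding sequence of Zfp758 and Six5 show this, written 5′ to 3′ from GENCODE M21 transcripts (GRCm38), with G and C in capitals.
Zfp758: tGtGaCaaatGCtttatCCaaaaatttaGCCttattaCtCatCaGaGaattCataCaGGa
Six5: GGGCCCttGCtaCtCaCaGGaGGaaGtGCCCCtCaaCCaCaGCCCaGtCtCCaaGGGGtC
G and C make up 19 of the 60 bases in the Zfp758 stretch and 38 of the 60 in the Six5 stretch, and 34.4% and 65.6% of the whole coding sequences.

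The same relation ran through all genes. Across 13465 genes with a GC content, which are not independent replicates, the difference between CsA and Sham had a Spearman correlation of -0.53 with GC content. In the tenth of genes with the lowest GC the median difference was 0.14 on the log2 scale, and in the tenth with the highest GC it was -0.17. Single libraries differed in this. CsA 1 ran from 0.28 to -0.31 relative to the Sham mean, CsA 3 from 0.12 to -0.15 and CsA 2 from 0.035 to -0.066. Sham 2 ran from 0.065 to -0.082, a wider range than that of CsA 2. After each library was corrected for its own trend on GC content, the log2 difference of Zfp758 was 0.40 and that of Six5 -0.31. With this correction no gene passed, and 146 genes had an unadjusted p under 0.05, 82 higher and 64 lower.

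**Figure D3:**
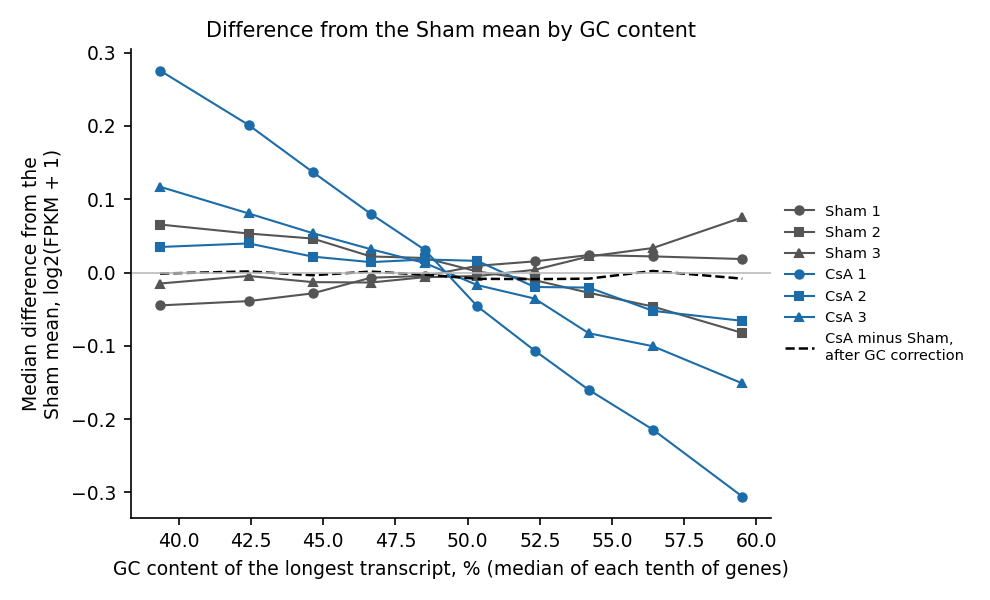
Median difference of each Sham and CsA library from the Sham mean, in log2(FPKM + 1), for 10 groups of genes ordered by the GC content of their longest transcript. CsA 1 has the steepest line, from 0.28 to -0.31, and CsA 2 overlaps Sham 2. The dashed line is CsA minus Sham after the GC correction.

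No transcript of the drug's own pathway passed the test. Rcan1, the calcineurin inhibitor whose transcription calcineurin drives, was at 23.6, 27.4 and 21.5 FPKM in Sham and at 23.7, 18.9 and 30.05 FPKM in CsA. Its log2 difference was -0.02, with a 95% interval from -0.56 to 0.53. The groups overlapped fully, and the VO libraries stood at 28.5, 29.2 and 49.4 FPKM. Among the 24 tested genes of calcineurin, NFAT and the calcipressins, 12 lay above 0 and 12 below, with a median log2 difference of 0.0011. None had an unadjusted p under 0.05. The NFAT factor Nfatc2 came closest, at 2.05, 2.20 and 2.09 FPKM in Sham and 1.36, 1.68 and 1.72 FPKM in CsA (limma unadjusted p = 0.0532, adjusted p of 1). Nfatc4 was the other member whose libraries did not overlap, at 1.57, 1.61 and 1.81 FPKM in Sham and 1.27, 1.46 and 1.06 FPKM in CsA. These 2 members are 8.33% of the list, against 4.94% of all genes tested that were lower without overlap.

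Cyclophilins are the proteins that cyclosporin A binds. Of 17 tested, 14 had a difference above 0, with a median of 0.089 and none at an unadjusted p under 0.05. Ppia, cyclophilin A, was at 27.7, 44.4 and 25.4 FPKM in Sham and at 31.1, 27.6 and 39.7 FPKM in CsA. Ppif, the mitochondrial cyclophilin that takes part in opening the permeability pore, was at 34.9, 41.2 and 30.7 FPKM against 32.8, 35.7 and 35.8 FPKM. Ppid, a cyclophilin that works with the chaperone Hsp90, had the smallest p of the list, with a log2 difference of 0.25 (limma unadjusted p = 0.115). In the VO libraries Ppia stood at 44.4, 84.7 and 68.0 FPKM, and CsA minus VO was -0.95 for it (limma unadjusted p = 0.00773, adjusted p = 0.219). Ppia has many processed pseudogenes, so its level is uncertain.

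Genes of the contractile apparatus lay mostly below 0. Of 32 tested sarcomere and Z-disc genes, 23 were below 0, with a median log2 difference of -0.12. Of these, 2 had an unadjusted p under 0.05, and the libraries of 6 did not overlap and were lower in CsA. Over all genes tested these shares were 0.89% and 4.94% in the lower direction. Myh7, the slow myosin heavy chain that ventricles express before birth and re-express under load, was at 4.64, 5.22 and 6.77 FPKM in Sham and at 3.47, 4.11 and 3.60 FPKM in CsA. Its log2 difference was -0.46 ± 0.20 (SE, limma unadjusted p = 0.0477, adjusted p of 1). In VO Myh7 was at 3.90, 4.92 and 2.54 FPKM, so CsA minus VO was 0.01. Mypn, a Z-disc linker, was at 17.9, 17.8 and 16.6 FPKM in Sham and at 11.6, 15.7 and 13.5 FPKM in CsA. Myh6, the fast myosin heavy chain of the mouse ventricle after birth, overlapped between the groups, at 2576, 2048 and 2097 FPKM in Sham and 1511, 2313 and 1631 FPKM in CsA.

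Of 27 tested ion channel genes, 25 were below 0, with a median of -0.20 and none at an unadjusted p under 0.05. Lower without overlap were 4 of them (14.8%), against 4.94% of all genes tested. The pacemaker channel gene Hcn4 was at 2.55, 1.998 and 2.96 FPKM in Sham and at 1.32, 2.07 and 1.37 FPKM in CsA. Cacna1h, a T-type calcium channel, was at 3.11, 2.99 and 2.92 FPKM in Sham and at 2.27, 1.85 and 2.14 FPKM in CsA, without overlap. The median of this list after the GC correction was -0.13, and the median GC content of its genes was 54.6%. Calcium handling genes were mixed, with 22 of 30 below 0 and a median of -0.058. Speg, a kinase of the junction between T-tubule and sarcoplasmic reticulum, was at 12.4, 12.4 and 15.6 FPKM in Sham and at 8.88, 10.3 and 9.20 FPKM in CsA, while Trdn, the triadin that anchors the release complex, was at 41.1, 41.2 and 25.7 FPKM against 52.4, 49.5 and 41.5 FPKM.

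Among core cardiac transcription factors 17 of 23 were below 0, with a median of -0.098, and 6 were lower in CsA without overlap, against 4.94% of all genes tested. Tbx5, which patterns the left ventricle and the atria, was at 10.8, 5.48 and 10.2 FPKM in Sham and at 4.93, 5.14 and 4.53 FPKM in CsA (limma unadjusted p = 0.0350, adjusted p of 1). Sham 2, the Sham library with little Myl7, was close to CsA here, and Tbx5 is also on the list of atrial markers. Without the 3 libraries high in Myl7 its log2 difference was -0.10. Nkx2-5, the homeobox factor of the heart lineage, was at 57.6, 53.9 and 89.5 FPKM in Sham and at 43.5, 52.6 and 45.8 FPKM in CsA. Hand2, a factor of right ventricular development, was at 12.0, 11.7 and 13.3 FPKM against 6.81, 10.6 and 11.4 FPKM.

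Genes that mark stretch of the ventricle varied widely inside both groups. Nppb, the B-type natriuretic peptide, was at 31.9, 49.9 and 21.4 FPKM in Sham and at 54.0, 8.70 and 98.5 FPKM in CsA, so CsA held both the lowest and the highest of the 6 values. Acta1, skeletal actin, was at 43.6, 65.0 and 33.4 FPKM in Sham and at 59.1, 9.95 and 38.2 FPKM in CsA. Their 95% intervals ran from -1.59 to 1.92 and from -2.01 to 0.70 on the log2 scale, too wide to place either gene. Nppa, the atrial peptide, followed Myl7, at 150.6, 0.914 and 113.7 FPKM in Sham and 4.46, 0.841 and 35.0 FPKM in CsA.

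Atrial markers were the list with the widest spread. All 15 lay below 0, with a median log2 difference of -0.93, but the libraries of 14 overlapped. Their summed level ran from 83.5 to 789.3 FPKM in Sham and from 95.5 to 251.6 FPKM in CsA, and none of them was at 0 in all 6 libraries. Sham 2, at 83.5 FPKM, was below every CsA library. With the 3 libraries high in Myl7 left out, the median was 0.18. It kept its sign in the rest of the 33 other fits. In bulk tissue, fewer cells of a type and less RNA per cell cannot be told apart.

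**Figure D4:**
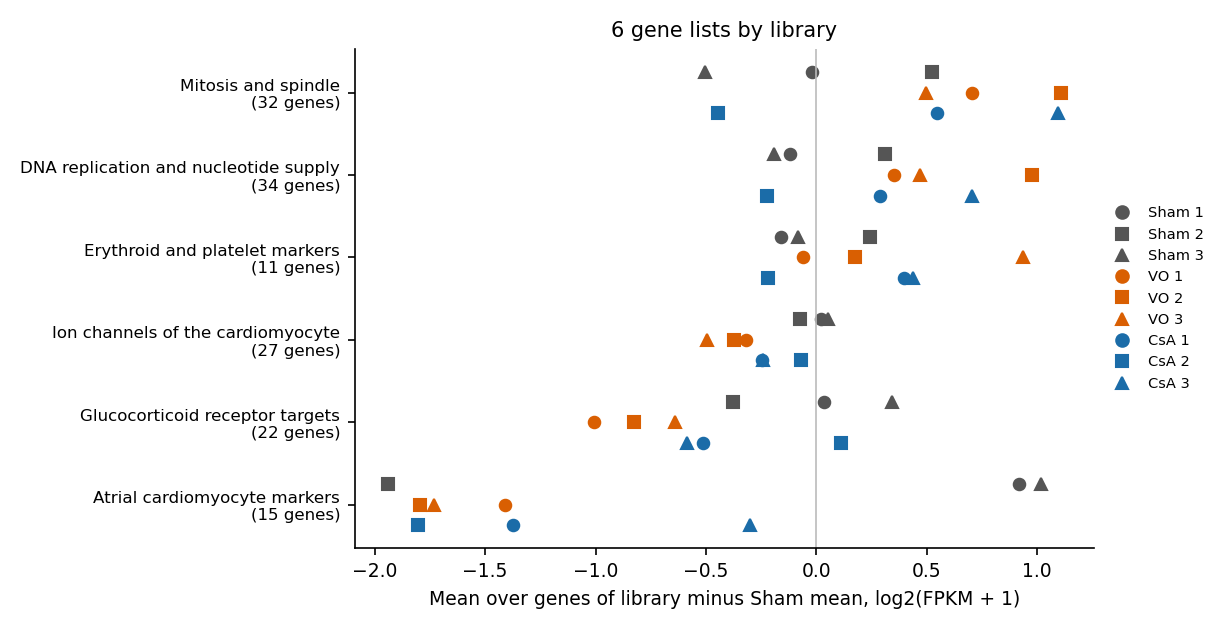
Mean over the genes of 6 lists of each library's difference from the Sham mean, in log2(FPKM + 1), with symbols for the replicate number and colours for the group. For mitosis genes CsA 1 and CsA 3 stand at 0.55 and 1.09 and CsA 2 at -0.45, and for atrial markers Sham 2 stands at -1.94 apart from Sham 1 and Sham 3.

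Cell cycle genes showed how the CsA libraries differed from each other. All 32 tested genes of mitosis and spindle and 33 of 34 of DNA replication had a fitted difference above 0, with medians of 0.39 and 0.26. None had an unadjusted p under 0.05 and none was free of overlap. Mki67, a marker of cycling cells, was at 3.79, 6.70 and 1.25 FPKM in Sham and at 7.16, 2.53 and 11.7 FPKM in CsA. CsA 1 and CsA 3 were above all Sham libraries, and CsA 2 lay between Sham 1 and Sham 3. Its log2 difference was 0.71 with a 95% interval from -0.52 to 1.95. Prim1, a subunit of the primase that starts new DNA strands, was at 0.673, 1.41 and 0.379 FPKM in Sham and at 2.10, 0.732 and 3.15 FPKM in CsA. Birc5, a protein of the chromosomal passenger complex, was at 1.31, 2.11 and 0.998 FPKM against 3.10, 1.12 and 4.43 FPKM. Averaged over the mitosis list, the libraries stood at -0.02, 0.52 and -0.51 in Sham and at 0.55, -0.45 and 1.09 in CsA, relative to the Sham mean. Without the 3 libraries high in Myl7 the medians of both lists turned to -0.46 and -0.20, and Mki67 to -0.52. Of the 33 other fits this was the only 1 in which these signs changed, and it leaves out CsA 3.

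CsA 1 and CsA 3 were also the highest of the Sham and CsA libraries in red cell and platelet markers. All 11 tested lay above 0, with a median of 0.18, and all overlapped. Their summed level was 898.3 to 1104 FPKM in Sham and 832.3 to 1253 FPKM in CsA. Hbb-bs, an adult beta globin, was at 440.1, 491.6 and 421.3 FPKM in Sham and at 593.2, 391.1 and 569.1 FPKM in CsA. Alas2, the enzyme of heme synthesis in red cell precursors, was at 8.19, 12.4 and 7.87 FPKM against 15.7, 9.79 and 15.2 FPKM. In both genes CsA 2 was within or below the Sham range. The part of blood RNA in the cell cycle values was not tested.

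Targets of the glucocorticoid receptor had the opposite order. Of 22 tested, 17 were below 0, with a median of -0.38 and none at an unadjusted p under 0.05. Lower without overlap were 2 of the list (9.09%), against 4.94% of all genes tested. Ddit4, an inhibitor of mTORC1, was at 47.1, 24.5 and 55.2 FPKM in Sham and at 21.6, 54.4 and 17.3 FPKM in CsA. Fkbp5, a co-chaperone of the receptor chosen after its values were seen, was at 4.45, 1.66 and 4.82 FPKM in Sham and at 1.62, 5.499 and 1.71 FPKM in CsA. For both genes CsA 2 was with Sham 1 and Sham 3, and Sham 2 was with CsA 1 and CsA 3. The same held for Cdkn1a, an inhibitor of cyclin-dependent kinases, at 22.6, 9.88 and 26.5 FPKM against 6.42, 20.4 and 8.62 FPKM. Per1, a clock gene that the receptor also activates, did not show this split: it was at 10.6, 11.9 and 13.7 FPKM in Sham and 6.77, 8.86 and 8.97 FPKM in CsA, without overlap (limma unadjusted p = 0.0598). Cebpb, a transcription factor of the stress response, did not overlap either, at 17.3, 14.5 and 18.98 FPKM against 6.58, 13.5 and 10.9 FPKM. Without the 3 libraries high in Myl7 the median of the list was 0.21, and the log2 differences turned from -0.53 to 0.47 for Ddit4 and from -0.73 to 0.21 for Cdkn1a. In the rest of the 33 other fits these signs did not change.

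The medians of the 4 lists of nuclear genes for energy supply lay between -0.14 and -0.010. Of 77 nuclear genes of oxidative phosphorylation, 53 were below 0, with a median of -0.073, none at an unadjusted p under 0.05 and 5 lower without overlap, which is 6.49% of the list against 4.94% of all genes. Cox8b, the heart and muscle subunit of cytochrome oxidase, was at 501.2, 390.9 and 494.9 FPKM in Sham and at 197.0, 446.0 and 310.0 FPKM in CsA. Fatty acid genes had a median of -0.010 and those of the TCA cycle -0.034. Of 30 genes of glucose use 24 were below 0, with a median of -0.14. Slc2a1, the glucose transporter of most growing cells, was at 3.54, 2.42 and 4.16 FPKM in Sham and at 2.22, 2.38 and 2.24 FPKM in CsA (limma unadjusted p = 0.0473, adjusted p of 1). Sham 2 nearly met the CsA libraries there. Its log2 difference of -0.40 became -0.05 when the 3 libraries high in Myl7 were left out.

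Of 13 mitochondrially encoded proteins 12 were above 0, with a median of 0.18. Of the 13, 3 were higher in CsA without overlap, against 4.8% of all genes tested. mt-Nd4, a subunit of complex I, was at 11343, 13605 and 13455 FPKM in Sham and at 15138, 14819 and 13780 FPKM in CsA. mt-Atp8, an ATP synthase subunit, was at 22.9, 53.2 and 29.5 FPKM against 83.0, 54.7 and 44.8 FPKM (limma unadjusted p = 0.0496, adjusted p of 1), and its gene overlaps mt-Atp6, so their fragments may be shared. The share of all fragments on mitochondrially encoded genes was 22.2% to 25.3% in Sham and 24.8% to 26.3% in CsA.

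Matrix genes differed by list before the GC correction. After it the medians were 0.058 for collagens and fibrillar matrix and -0.014 for basement membrane. For elastic fibres and small leucine-rich proteoglycans the corrected median was -0.0050. The values below are uncorrected. Of 33 collagen and fibrillar matrix genes, 16 were above and 17 below 0, with a median of -0.0050, no overlap-free gene and none at an unadjusted p under 0.05. Col1a1, a chain of the main fibrillar collagen, stood at 178.9, 121.3 and 150.5 FPKM in Sham and at 125.1, 132.8 and 149.4 FPKM in CsA. Col3a1 was at 314.6, 253.9 and 295.3 FPKM against 292.4, 265.5 and 286.7 FPKM, and its 95% interval ran from -0.42 to 0.37. Postn, a matrix protein of activated fibroblasts, was at 58.5, 76.8 and 38.7 FPKM against 86.3, 37.4 and 96.5 FPKM, where CsA 2 was the lowest of all 6 libraries. Basement membrane genes were below 0 for 13 of 19, with a median of -0.11 and 1 higher without overlap. Elastic fibre and small leucine-rich proteoglycan genes were below 0 for 13 of 24, with a median of -0.086, 2 higher and 1 lower without overlap. Over all genes tested, 4.8% were higher and 4.94% lower without overlap. Podn, of the latter list, was at 11.3, 2.34 and 11.2 FPKM in Sham and at 2.77, 3.46 and 3.25 FPKM in CsA, so that Sham 2 was below all CsA libraries.

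The lists of RNA and protein machinery had medians above 0 in the main fit. Of 46 spliceosome, SR and hnRNP genes 31 lay above 0, with a median of 0.12 that was 0.055 after the GC correction, and Snrpg was the 1 member with an unadjusted p under 0.05. Without overlap were 1 higher and 3 lower members (6.52%), against 4.8% higher and 4.94% lower over all genes tested. Translation initiation factors had a median of 0.082, proteasome subunits 0.039 and heat shock chaperones 0.025. With the GC correction these medians were 0.028, 0.043 and -0.012, and the sign for heat shock chaperones changed in 8 of 33 other fits. None of these lists had a gene at an unadjusted p under 0.05. Of 32 heat shock chaperones 4 were lower without overlap (12.5%, against 4.94% of all genes tested). Interferon response genes had a median of 0.069, TGF-beta and BMP genes -0.0093, and genes of the Hippo pathway 0.023, again with none at that level.

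Most markers of vessels and immune cells overlapped between the groups. Endothelial markers had 13 of 25 above 0 and a median of 0.012. Of the 25, 1 (Plvap) was lower in CsA at an unadjusted p under 0.05 in limma, against 0.89% of all genes tested, and its libraries overlapped. Pecam1 was at 68.2, 54.4 and 65.2 FPKM in Sham and at 63.5, 75.4 and 60.05 FPKM in CsA. Vegfc, a growth factor of lymphatic vessels, did not overlap, at 4.81, 4.32 and 4.54 FPKM against 5.20, 7.39 and 6.66 FPKM (limma unadjusted p = 0.0474, adjusted p of 1). Smooth muscle and pericyte markers were below 0 for 14 of 16, with a median of -0.15 that was -0.043 after the GC correction. Cnn1, the calponin of smooth muscle, was at 1.88, 1.21 and 4.74 FPKM in Sham and at 0.674, 0.9751 and 0.779 FPKM in CsA (limma unadjusted p = 0.0159, adjusted p of 1), and its log2 difference was -0.28 in place of -0.88 without the 3 libraries high in Myl7. Fibroblast markers had a median of -0.025 and macrophage markers -0.070. The macrophage gene Cd68 was at 3.98, 4.81 and 2.95 FPKM in Sham and at 4.202, 2.77 and 6.30 FPKM in CsA. Of 20 neutrophil and mast cell markers, 9 were tested and all lay above 0 with a median of 0.11, while Ly6g, Mpo and Elane were listed at 0 in all 6 libraries. Of 14 skeletal muscle markers, 6 were listed at 0, among them Myh1, Myh2 and Myh4, and the list summed to 262.3 to 300.2 FPKM in Sham and 215.0 to 280.5 FPKM in CsA, nearly all of it from Ckm, the muscle creatine kinase that heart muscle also expresses. Of 14 fat markers, Lep and Retn were listed at 0, and the list summed to 237.4 to 265.7 FPKM in Sham and 217.4 to 312.2 FPKM in CsA.

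For Rfc4, Srsf7 and Klf4, which are far apart in VO and Sham, the CsA values stood closer to Sham. These contrasts share libraries, and the genes were chosen with earlier results of these data known. Choosing genes where VO is far from Sham also favours a wide difference between CsA and VO. The values are therefore given side by side and no relation between them is tested. Rfc4, which loads the replication clamp, was at 3.49, 5.07 and 3.62 FPKM in Sham, 13.1, 14.0 and 13.8 FPKM in VO and 6.84, 3.59 and 7.999 FPKM in CsA. CsA minus Sham was 0.45 and CsA minus VO -1.09 on the log2 scale. CsA 2 was at the Sham level, and CsA 1 and CsA 3 were between the groups. Srsf7, a splicing factor, was at 14.7, 20.8 and 17.0 FPKM in Sham, 54.2, 48.4 and 51.3 FPKM in VO and 29.2, 15.01 and 29.1 FPKM in CsA. Klf4, a transcription factor of the early response, was at 19.7, 17.1 and 20.1 FPKM in Sham, 7.33, 7.68 and 5.48 FPKM in VO and 14.0, 17.3 and 15.4 FPKM in CsA. The differences from VO did not pass in limma: 0 of 13477 genes (0.0%) were called between CsA and VO, where 2219 (16.5%) had an unadjusted p under 0.05. For Klf4 the difference was 1.09 with an unadjusted p of 5.29e-05 and an adjusted p of 0.204.

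**Figure D5:**
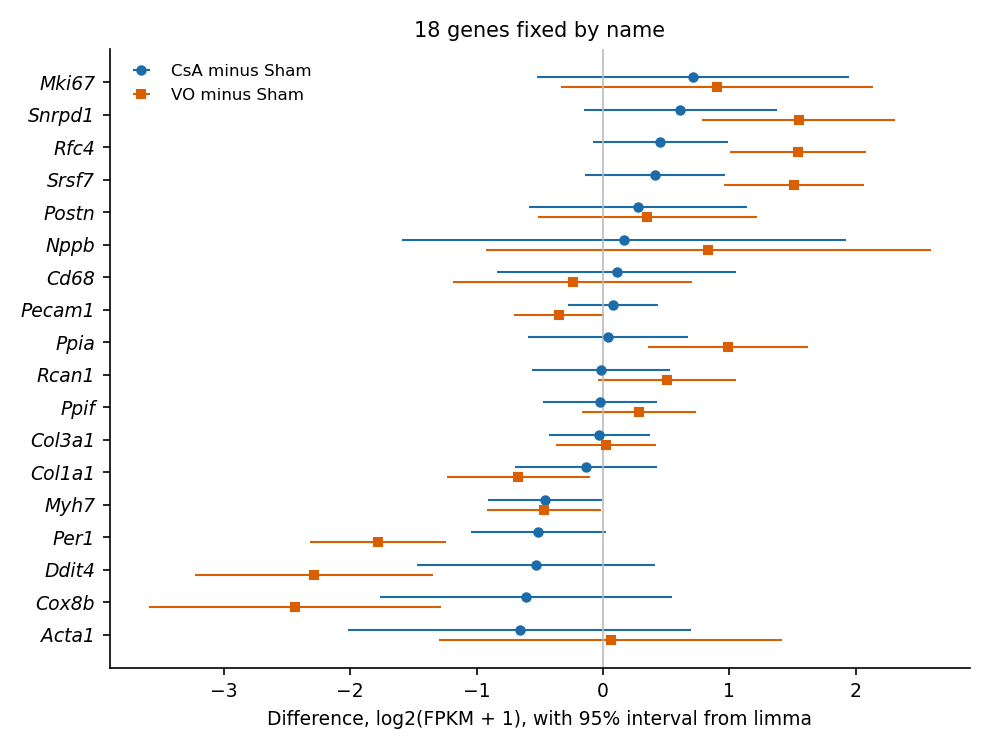
Fitted differences in log2(FPKM + 1) with 95% intervals from limma for 18 genes fixed by name, CsA minus Sham (circles) and VO minus Sham (squares), which share the Sham libraries. The CsA interval covers 0 for each gene except Myh7, whose interval ends just below 0, and the CsA point of Ddit4 is at -0.53 against -2.28 for VO.

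The loci with the smallest p of all genes were 2 short microRNA genes, chosen after their values were seen. MicroRNAs are short RNAs that pair with messenger RNAs through their seed, bases 2 to 8. The labels describe no selection of small RNA, so a fragment here lies over the locus and is no measure of the mature microRNA. The mature sequences, from RefSeq on GRCm38.p6, are written 5′ to 3′ with the seed in capitals, to show which loci these are.
mmu-miR-6931-5p: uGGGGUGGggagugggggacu
mmu-miR-6931-3p: cCCAACCUcuucauaccccag
mmu-miR-7027-5p: uGGAAAGGaagaaacagcagagc
mmu-miR-7027-3p: uCGGGUUUcucuccucuuccag
No seed is shared among these 4. Mir6931 (chromosome 11, 102999848 to 102999921, minus strand, GRCm38) lies in an intron of Dcakd, with Gm26668 on the other strand. It held 2, 6 and 3 fragments in Sham and 0 in every CsA and VO library. Against a floor of 3 fragments over the CsA group it was 3.33-fold lower in CsA, with a limma unadjusted p of 1.55e-05 and an adjusted p of 0.208. Mir7027 (chromosome 5, 114404468 to 114404539, plus strand) lies in an intron of Ube3b and held 3, 3 and 1 fragments in Sham and 0 in CsA. Against the same floor it was 2.12-fold lower. The host Dcakd was at 17.7, 16.9 and 13.9 FPKM in Sham and at 14.6, 15.2 and 15.8 FPKM in CsA, so the groups overlapped. Ube3b was at 25.2, 24.0 and 24.9 FPKM against 18.5, 22.4 and 21.2 FPKM, without overlap. The floor allows for counting error in CsA alone. The Sham fragments were taken as counted, and the choice of these loci by small p was not allowed for. Neither fold is therefore a lower bound. PCR copies and separate molecules could not be told apart either.

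Over the 34 alternatives run for CsA against Sham, only Mir6931, Hamp, Podn and the Y-linked genes Ddx3y and Eif2s3y passed the adjusted threshold in any. Hamp, the iron hormone hepcidin, was at 11.0, 0 and 8.66 FPKM in Sham and at 0, 0 and 0.743 FPKM in CsA. Sham 1 and Sham 3 were high in it, as in Myl7, and it passed only without Sham 2, with a log2 difference of -3.16 (limma adjusted p = 0.0165). Podn passed in the same setting, at -1.56 (limma adjusted p = 0.0346). Ddx3y and Eif2s3y passed only where Sham 2, the library with Y-linked transcripts, was the 1 Sham library left.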

How the data were processed

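Bulk RNA-seq libraries of right ventricular myocardium were grouped by their labelled treatment. Values are FPKM per gene and library, as the authors deposited them. Per the submitters' processing notes the tools included GATK 3.7, DESeq2 1.20.0, featureCounts 1.5.0-p3, StringTie 1.3.3b and HISAT2 2.0.5, with the builds GRCm38 and mm10; their roles, the annotation release and the use of strand are not given, so overlapping and antisense genes may share fragments. FPKM steps gave whole fragments within 0.1 for 100% of values. These gave the library depths and the input for voom.

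FPKM is not a count, so log2(FPKM + 1) was tested with limma 3.58.1 in R 4.3.3. All 9 libraries entered 1 fit with a mean-variance trend and no covariate, for genes averaging 0.5 FPKM or more, with Benjamini-Hochberg adjustment at 0.05, two-sided. A difference on this scale understates the change of low genes. No 2 of the Sham and CsA libraries agreed within sampling noise (chi-square per degree of freedom 10.9 or more). None of them was therefore treated as a library deposited again, which does not show that they are separate animals. The VO libraries were not checked in this way. The steps were tested on simulated data.

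The genes, lists and rules were chosen with earlier results of these data known. Named were the 5 genes per direction with the smallest p (protein coding, a symbol, at least 2 FPKM in the higher group, no overlap between the libraries), from each list up to 4 members of smallest p, and 20 genes fixed by name. Others are marked as chosen after their values were seen, which also holds for Myl2, Ddx3y, Eif2s3y, Hamp, Hbb-bs, Dcakd, Ube3b and Mir7027. GC content came from the longest GENCODE M21 transcript, whose annotation holds 99.93% of the gene identifiers. The GC correction removed a loess trend (span 0.3, degree 1) from each library. Coordinates are those of the deposited table. Figures were drawn with matplotlib 3.10.9.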

Additional observations from a re-analysis of the deposited data

How the results depend on the processing

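Of 34 alternatives (33 other fits and a 2-fold requirement on the calls), 30 also called 0 genes between CsA and Sham in limma. The exceptions were 1 gene with atrial marker level added as covariate, 3 genes without the 3 libraries high in Myl7, and the settings that left out 1 library, which ranged from 0 to 3 genes. Leaving out Sham 1 gave 1 gene and leaving out Sham 2 gave 3. The count at an unadjusted p under 0.05 was 200 and ranged from 80 to 3475, the highest with library weights. With no filter it was 641 of 26573 genes. Between CsA and VO, the settings that left out 1 library ranged from 0 to 1 gene, Mir301 without VO 3, and 1 gene also passed with VO 3 left out and the GC correction. The cause of these differences was not tested. The deviations of same-numbered Sham and CsA libraries correlated at -0.21, -0.40 and -0.25, and no CsA library correlated best with the Sham library of its own number. This gave no sign of pairing by replicate number. It cannot exclude pairing, because deviations from the mean of 3 libraries are tied to each other. With the replicate block 0 genes were called (167 at an unadjusted p under 0.05), and with the block and the GC correction 0 as well (144). Of the 47 lists, 12 kept the sign of their median in every alternative run, and of 221 named genes 136 kept theirs. A value that fell to 0 was counted as kept, as for Hamp, Ddx3y and Eif2s3y. Genes named because their CsA and Sham libraries did not overlap cannot change sign when libraries are left out, so for them this was fixed in advance. The fits of the Sham and CsA libraries alone with GC correction, without Sham 2, with voom or with the block, and VO 3 left out with GC correction, were chosen after seeing the data. With 3 libraries a group, depth was not tested as the limit.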

Other observations

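Small p-values of CsA against Sham were spread unevenly over kinds of gene, given here as counts with no test. An unadjusted p under 0.05 was reached by 1.05% of the 11793 protein-coding genes tested, by 6.92% of 665 processed pseudogenes, by 6 of 63 snoRNA genes and by 4 of 67 miRNA genes. Over all genes tested the share was 1.48%, and processed pseudogenes, snoRNA genes (9.52%) and miRNA genes (5.97%) were above it. With no difference 5% would be expected, so protein-coding genes were below that share and processed pseudogenes near it. Gm43305, a noncoding transcript chosen after its values were seen, was at 1.60, 1.88 and 1.25 FPKM in Sham, at 0.914, 1.75 and 0.995 FPKM in VO and at 0.318, 0.322 and 0.653 FPKM in CsA. Its CsA libraries were below all libraries of both other groups, with unadjusted limma p of 0.00112 against Sham and 0.00772 against VO. Mir7031, a microRNA locus, was the reverse of Mir6931, with 0, 1 and 0 fragments in Sham and 2 in each CsA library, too few to read a difference from.

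Tmem254c, a member of a family of near-identical copies and so uncertain, was at 2.25, 1.05 and 2.29 FPKM in Sham and at 0.318, 0.307 and 0.144 FPKM in CsA, without overlap (limma unadjusted p = 0.00396, adjusted p of 1). Ucp1, the uncoupling protein of brown fat, was at 3.30 FPKM in Sham 3 and listed at 0 in the other 5 Sham and CsA libraries.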
